A study of Mus musculus with 3 samples.

Results

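The cytosolic ribosomal protein genes encode the proteins of the 60S and 40S subunits of the cytoplasmic ribosome. They were taken from the gene table by symbol, as Rpl or Rps followed by a number, the stalk genes Rplp0 to Rplp2, and Rpsa. The kinases of the Rps6k family and the rows named as pseudogenes were left out. The rule found 84 genes of 16072 named genes, 51 of the large subunit and 33 of the small subunit, and it used no measured value. Of the 84 genes, 83 averaged 1 FPKM or more over the 3 libraries (FPKM counts fragments scaled for transcript length and library size), and Rpl39l was the exception.

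RNA-seq was read here in 3 libraries of Ly6G+ myeloid cells from the bone marrow (BM) of C57BL/6 mice, and Ly6G is a surface protein of neutrophils. Both AAV-ctrl libraries (AAV-ctrl 1 and AAV-ctrl 2) came from mice given an empty adeno-associated virus vector, and the AAV-IL27 library from the group given a vector for IL-27. All mice carried subcutaneous B16.F10 melanoma, implanted 1 week ahead of the vector, and BM was taken 3 weeks after it. The vector was of the AAV2/8 type, was injected into muscle rather than BM, and drove linked EBI3 and p28 chains from the ubiquitous CAG promoter. The gene table also holds a column headed as another IL27 replicate, which no listed sample matches and which was not analysed here. The AAV-IL27 condition therefore rests on 1 library, so no test was run and every difference below is between libraries. A difference is log2(FPKM + 1) in AAV-IL27 less the AAV-ctrl mean unless stated otherwise. The labels do not give the age or sex of the mice, nor whether a library held 1 animal or a pool.

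Cytosolic ribosomes translate the messenger RNA made in the nucleus, and each ribosome holds 1 copy of most of these proteins, with several copies only of the acidic stalk proteins. Many ribosomal protein messages begin with an uninterrupted run of pyrimidines, through which their translation follows nutrient and growth signals. In the bone marrow, ribosome production is high in dividing progenitors and in early erythroid cells, and loss of 1 copy of genes such as RPS19 causes Diamond-Blackfan anaemia in humans.

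The RefSeq start windows of GRCm38.p6 (250 bases before to 50 after the annotated start) held an entry for 63 of the 84 genes. Windows of 30 bases are shown for the 5 genes with the lowest and then the 5 with the highest differences among members with a window that averaged 1 FPKM or more, to set the starts of both ends of the range side by side. Capitals mark CTTTCC or its longer form CTCTTTCC on the sense strand where either lies nearest to the start, and windows without capitals hold neither on that strand and run from 15 bases before the start.
Rpl36a (chrX:134585674-134585703, plus strand): gctctagcctctCTCTTTCCgagctgctag
Rpl10a (chr17:28328456-28328485, plus strand): gtggcgcccccccagcggccgcaaactgca
Rpl12 (chr2:32961697-32961726, plus strand): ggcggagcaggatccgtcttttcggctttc
Rpl22l1 (chr3:28805493-28805522, plus strand): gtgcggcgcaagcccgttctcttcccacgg
Rps4x (chrX:102189377-102189406, minus strand): ctgaggctgggcggagcaacccaggctcca
Rps27 (chr3:90213629-90213658, minus strand): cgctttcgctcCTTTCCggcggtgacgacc
Rpl35a (chr16:33056471-33056500, plus strand): ggcttgccttcCTCTTTCCgccatcttggc
Rpl7l1 (chr17:46782642-46782671, minus strand): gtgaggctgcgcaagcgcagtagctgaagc
Rpl3l (chr17:24732670-24732699, plus strand): gtcatcaacagctacagtgccccaaatgtc
Rpl38 (chr11:114668569-114668598, plus strand): gaagcctcgttCTTTCCccgttctcttcgg

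The starts used for Rpl3l, Rpl35a and Rpl38 lay inside the listed gene spans, which begin at chr17:24727826, chr16:33056453 and chr11:114667818. Their windows may therefore not show the first start of the gene. Counting the annotated start of each window as base 1, the marked run began at base 33 in Rpl36a, base 2 in Rps27 and base 1 in Rpl38, and at base -32 in Rpl35a. The family as a whole carried such runs often. Searched on both strands, CTTTCC was present in 31 of 63 windows (49.2%) against 26.7% of 12505 windows of all genes, and CTCTTTC, which can overlap CTTTCC by 5 bases, in 17 (27.0%) against 7.49%. CCGGAAG, a core bound by ETS factors, was present in 25 windows (39.7%) against 16.3%, and TATAAA in 6 (9.52%) against 8.27%. The runs did not separate the genes by their values in AAV-IL27. The median difference was -0.21 in genes with CTTTCC and -0.22 in those without, -0.23 and -0.22 for CTCTTTC, and -0.22 and -0.23 for CCGGAAG. The 6 genes with TATAAA had a median of -0.44 against -0.20 in the other 56 expressed genes, a comparison of few genes in single libraries.

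The general pattern was a small downward displacement of nearly the whole family in AAV-IL27. The median difference of the 83 genes was -0.22, or 85.7% of the AAV-ctrl level on the FPKM + 1 scale, while the median over all 9130 genes that averaged 1 FPKM or more was -0.01. Large subunit genes had a median of -0.19 and small subunit genes a median of -0.23. AAV-IL27 was the lowest of the 3 libraries for 73 of the 83 genes, 43 of 50 in the large subunit and 30 of 33 in the small subunit, against 41.9% of all genes. It was the highest for 5 genes, against 38.9% of all genes. Among genes that averaged 30 FPKM or more, a range that holds 74 of the 84, 67 were below both AAV-ctrl libraries and 3 above both, against 33% and 48.6% of all genes at that level. In that range 22 members were lower by 0.25 or more, against 5.63%, and the median over all genes was 0.03.

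The difference from the AAV-ctrl mean was under 1 log2 unit in size in each of the 83 genes, and most genes lay less than 0.25 from the nearer control. At a distance of at least 0.25 from both AAV-ctrl libraries, 26 genes were lower (14.6% of all genes) and 0 were higher (6.36% of all genes). At a distance of at least 1 log2 unit, 0 genes were lower and 0 higher (2.32% and 0.307% of all genes). Differences across the family ran from -0.91 for Rpl36a to 0.38 for Rps4l, and the middle of the distribution lay between -0.38 and -0.13.

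**Figure D1:**
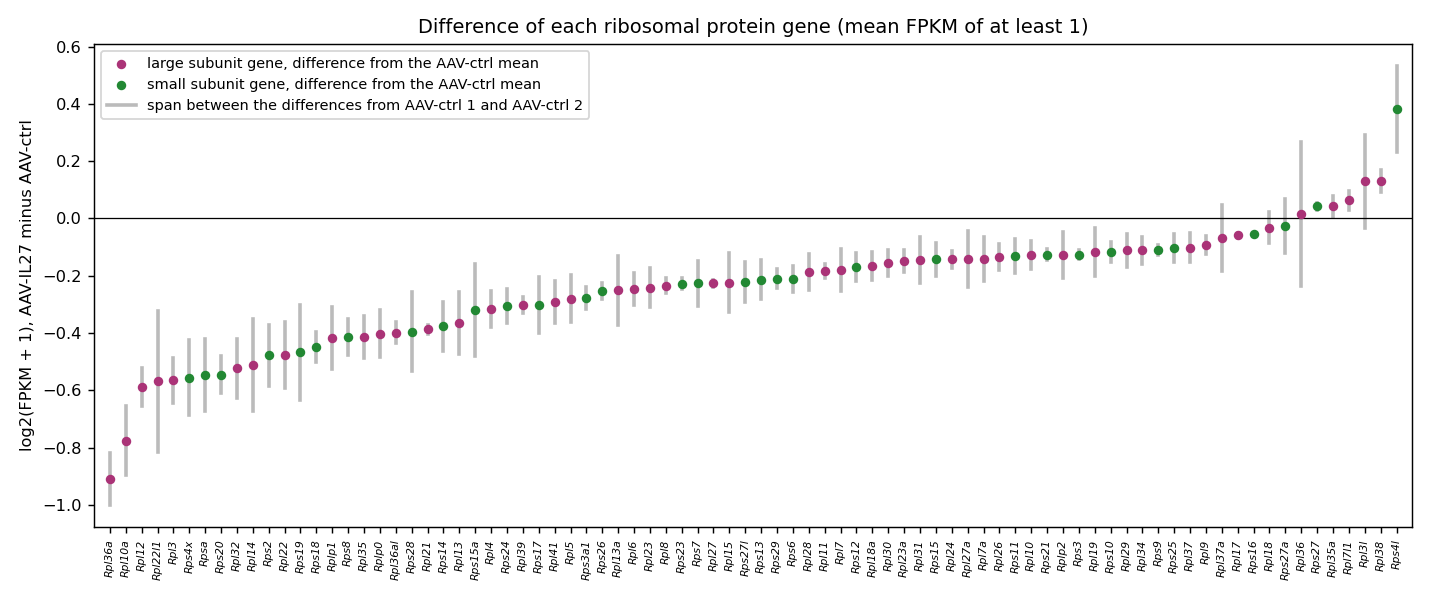
Difference of log2(FPKM + 1) between AAV-IL27 and AAV-ctrl for 82 genes averaging 1 FPKM or more (1 gene is not drawn), in rising order, with dots for the difference from the mean of both AAV-ctrl libraries, coloured by subunit, and grey bars spanning the differences from each AAV-ctrl library. In 72 genes the whole bar lies below 0, and in 5 it lies above 0.

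The AAV-ctrl libraries themselves differed in the same genes. AAV-ctrl 2 was above AAV-ctrl 1 in 78 of the 83 genes, against 50.3% of all genes, with a median of 0.12 for AAV-ctrl 2 minus AAV-ctrl 1. The order AAV-ctrl 2, AAV-ctrl 1, AAV-IL27 from high to low was found in 70 genes (84.3%) against 24.8% of all genes. The family median was therefore -0.15 against AAV-ctrl 1 and -0.25 against AAV-ctrl 2. In 50 of 83 genes AAV-IL27 lay below the nearer AAV-ctrl library by more than the AAV-ctrl libraries differed from each other, against 28.8% of all genes. Taking another library as the odd one, AAV-ctrl 1 was the lowest in 8 genes and the highest in 4 (25.2% and 26.6% of all genes), and AAV-ctrl 2 the lowest in 2 and the highest in 74 (32.3% and 34% of all genes). The family thus stood at 3 levels in the 3 libraries, and the step between the controls was of similar size to the step from AAV-ctrl 1 to AAV-IL27.

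**Figure D2:**
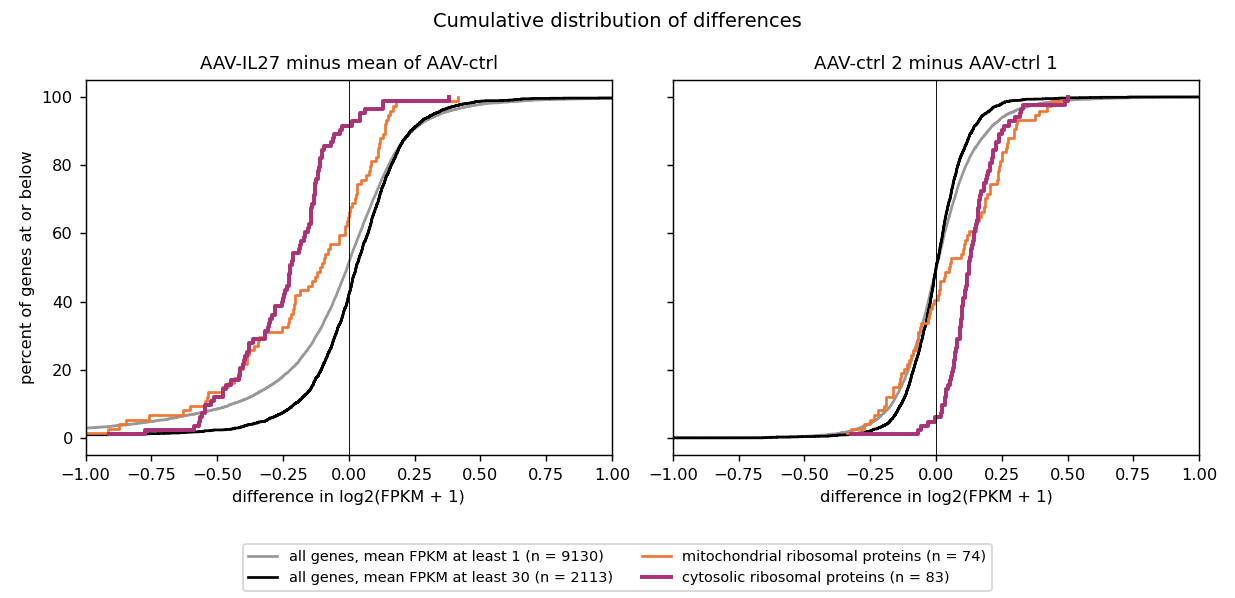
Cumulative percent of genes against the difference of log2(FPKM + 1), for AAV-IL27 minus the mean of AAV-ctrl on the left and AAV-ctrl 2 minus AAV-ctrl 1 on the right, for cytosolic ribosomal protein genes, mitochondrial ribosomal protein genes, all genes averaging 1 FPKM or more and all genes averaging 30 FPKM or more. The cytosolic curve lies to the left of the others around its median of -0.22 in the left panel and to the right of 0 in the right panel, where its median is 0.12, and differences beyond 1 log2 unit lie outside the axes.

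The family made up 1.90% of all FPKM in AAV-ctrl 1, 2.09% in AAV-ctrl 2 and 1.79% in AAV-IL27. Its summed FPKM was 11316, 12237 and 10266 in the same order, so that AAV-IL27 held 87.2% of the AAV-ctrl mean of 11776 ± 651 (SD, n = 2). Large subunit genes held 86.7% of their AAV-ctrl sum and small subunit genes 87.8%. The ratio of large to small subunit FPKM was 1.14 in AAV-ctrl 1, 1.17 in AAV-ctrl 2 and 1.14 in AAV-IL27. The share of globin genes differed far more between the libraries, at 3.40%, 2.32% and 0.405% of all FPKM. With the globin genes taken out of the totals, the ribosomal protein share was 1.97%, 2.14% and 1.80%.

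**Figure D3:**
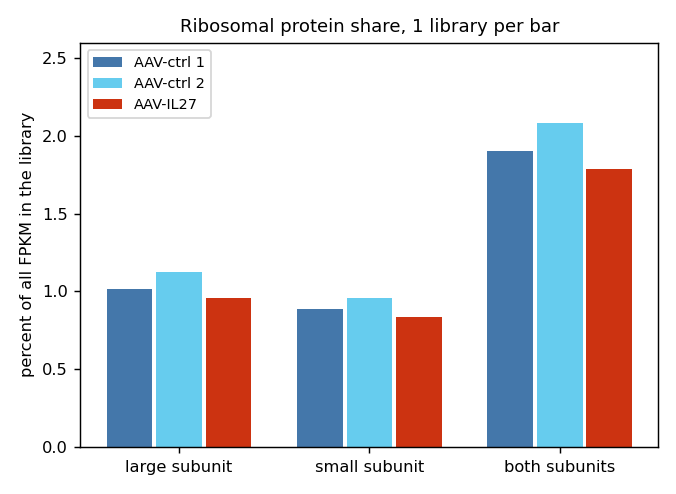
Percent of all FPKM in a library that fell on large subunit genes, small subunit genes and both, with 1 bar for each of the 3 libraries and no error bar because each bar is 1 library. For both subunits the bars stand at 1.90%, 2.09% and 1.79%.

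FPKM values are per length, so levels can be set beside each other across genes. The levels of the family spanned a wide range that was nearly the same in each library. The median FPKM was 126 in AAV-ctrl 1, 141 in AAV-ctrl 2 and 110 in AAV-IL27, 5 genes had a mean FPKM over 250, 47 lay between 100 and 250, and 10 were under 20. Across the 83 genes, log2 FPKM of AAV-ctrl 1 and AAV-ctrl 2 had a Pearson correlation of 0.996, AAV-ctrl 1 and AAV-IL27 one of 0.992, and AAV-ctrl 2 and AAV-IL27 one of 0.988. These are correlations across genes of single libraries, in which genes are not independent replicates.

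Rps9, a protein of the mRNA entry channel (chr7:3703954-3706897), was the most abundant message, with 754 FPKM in AAV-ctrl 1, 771 in AAV-ctrl 2 and 707 in AAV-IL27, the order kept below. It was the only member among the 100 highest genes of each library. Rps27, a zinc finger protein of the small subunit (chr3:90212667-90213648), followed at 517, 526 and 537 FPKM and was highest in AAV-IL27, by 0.03 over the nearer AAV-ctrl library. Rpl41, which encodes a very short peptide of the large subunit, had 311, 344 and 267 FPKM. Rpl23a, which sits at the exit of the peptide tunnel, had 308, 325 and 285 FPKM, and Rps16 of the small subunit head had 279, 278 and 268 FPKM. Rpl41 and Rpl23a overlapped in their AAV-ctrl ranges, and the other neighbours among these 5 did not. In Rps9, Rpl41, Rpl23a and Rps16 the distance to the nearer control was larger than the gap between controls, with differences of -0.11, -0.29, -0.15 and -0.06. The difference of Rps16 changed sign, to 0.0030, when the libraries were rescaled by median ratios.

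The next 5 by level were Rpl9, Rps27a, Rps10, Rpl17 and Rpl28, with means over AAV-ctrl of 243 ± 7.60, 234.6 ± 21.8, 238 ± 8.03, 232 ± 2.02 and 239 ± 14.9 FPKM (SD, n = 2). Neighbours in this order did not separate beyond the spread between the AAV-ctrl libraries. In AAV-IL27 they had 228, 230, 219, 223 and 209 FPKM. Rps27a, which is made as a fusion with ubiquitin, was inside the control range of 219 to 250. At the low end of the genes without a paralogue ending, Rps15a had 7.25, 9.31 and 6.39 FPKM, Rps20 9.17, 10.1 and 6.29, and Rpl22 9.93, 11.8 and 7.50. The highest and lowest of these genes were 97.3-fold apart. Rps15a and Rps20 were matched to transcripts of 5179 and 3706 nt, far above the family median of 799 nt, so their FPKM depends on which transcript length the authors used.

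**Figure D4:**
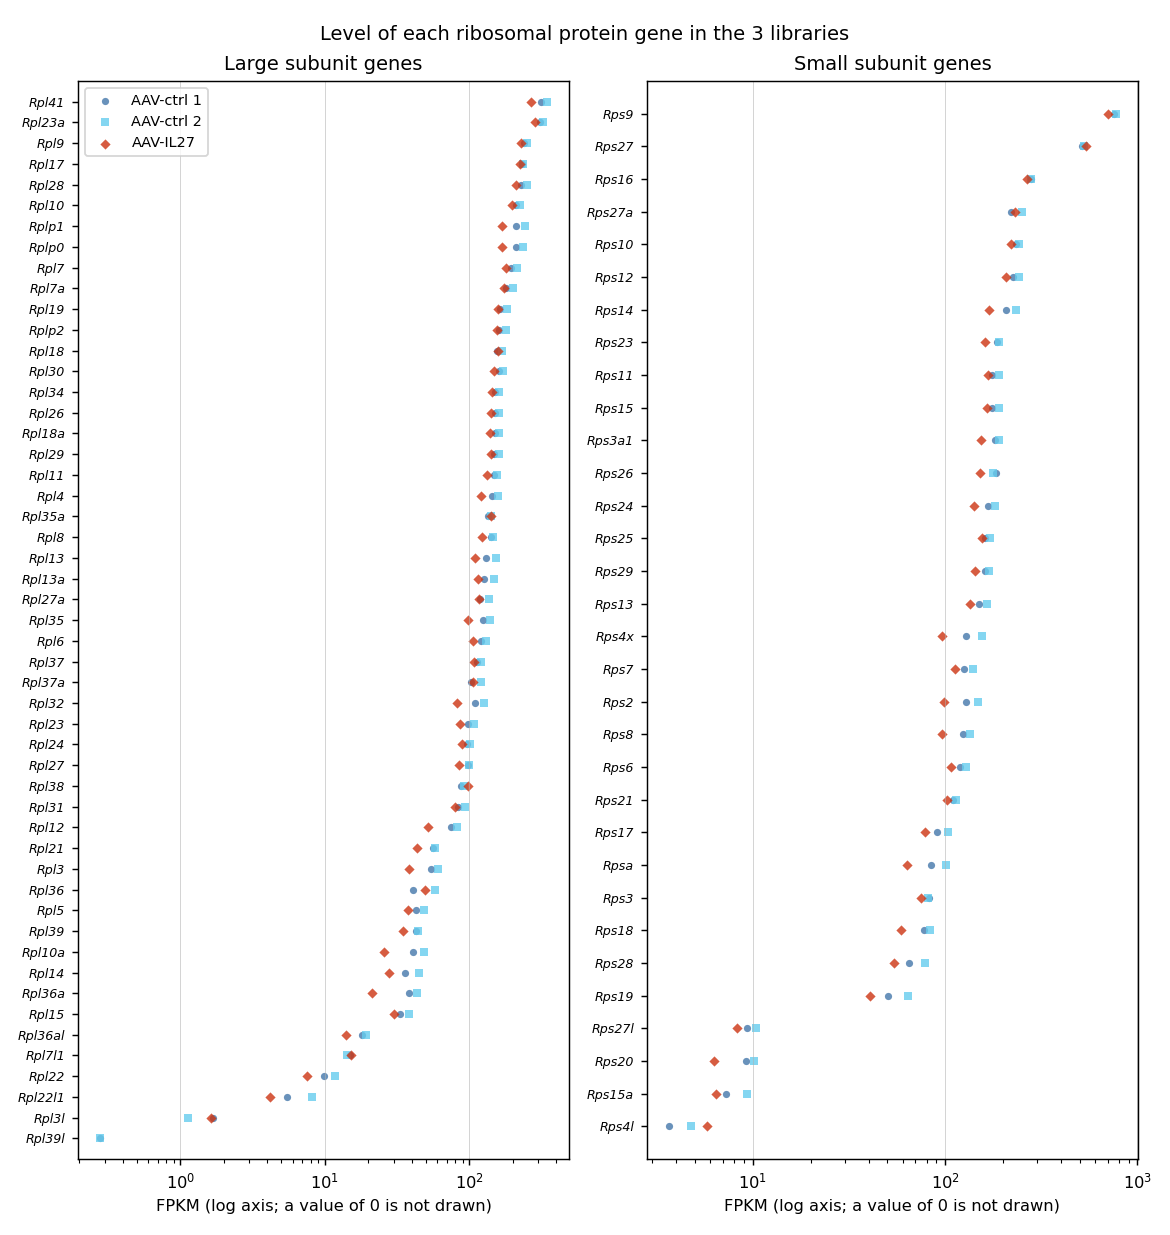
FPKM on a log axis of the 51 large subunit genes and 32 small subunit genes (1 is not drawn) in AAV-ctrl 1 (circles), AAV-ctrl 2 (squares) and AAV-IL27 (diamonds), ordered by mean FPKM. The diamonds lie to the left of both controls in most rows, and Rps9 at 707 to 771 FPKM and Rps27 at 517 to 537 FPKM stand above the rest of the small subunit.

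The genes furthest below the controls, except Rps4x, had levels under the family median. Rpl36a (chrX:134585654-134588062) had 37.9 FPKM in AAV-ctrl 1, 43.2 in AAV-ctrl 2 and 21.1 in AAV-IL27, a difference of -0.91 from the control mean and of -0.82 from the nearer control. From the estimated depth, these correspond to 301 fragments (95% Poisson interval 268 to 337), 347 (311.4 to 385.5) and 166 (141.7 to 193.3), so the AAV-IL27 interval did not meet the control intervals. Intervals of this kind cover counting error only. Rpl10a (chr17:28328471-28331033), the protein of the L1 stalk, which guides the departing tRNA, had 40.8, 48.3 and 25.5 FPKM and a difference of -0.78. Its estimated fragments were 595 (548.1 to 644.8), 714 (662.6 to 768.3) and 370 (333.3 to 409.7).

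Rpl12, at the base of the acidic stalk, had 74.9, 82.3 and 51.8 FPKM, a difference of -0.59. Rpl22l1, the paralogue of Rpl22, had 5.48, 8.11 and 4.18 FPKM, a difference of -0.57. Its estimated fragments were 51 (38 to 67.1), 76 (59.9 to 95.1) and 38 (26.9 to 52.2), so the interval in AAV-IL27 met that of AAV-ctrl 1 but not that of AAV-ctrl 2. Rpl3, which reaches towards the peptidyl transferase centre, had 54.2, 60.7 and 38.4 FPKM, a difference of -0.57. Rps4x, the X-linked S4 protein, had 129, 155 and 95.7 FPKM, a difference of -0.56. Rpsa, which is also known as the laminin receptor, had 84.6, 101 and 62.9 FPKM and a difference of -0.55. Every one of these genes was lowest in AAV-IL27 and highest in AAV-ctrl 2, and none of the control ranges overlapped the AAV-IL27 value.

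At the other end, AAV-IL27 was above both controls in Rps4l, Rpl38, Rpl7l1, Rpl35a and Rps27, and in none of them by 0.25 or more. Rps4l is an autosomal relative of Rps4x whose listed transcript is annotated as non-coding. It had 3.66, 4.74 and 5.74 FPKM and a difference of 0.38, against -0.56 for Rps4x. Its estimated fragments were 61 (46.7 to 78.4), 80 (63.4 to 99.6) and 96 (77.8 to 117.2), so the AAV-IL27 and AAV-ctrl intervals overlapped. Rpl38, a small protein needed for the translation of Hox messages, had 87.4, 92.4 and 98.4 FPKM and a difference of 0.13. Its estimated fragments of 505 (461.9 to 551), 541 (496.4 to 588.6) and 566 (520.3 to 614.6) overlapped in all 3 libraries. Rpl35a, mutated in some patients with Diamond-Blackfan anaemia, had 133, 141 and 141 FPKM and a difference of 0.04.

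The AAV-IL27 value lay between the controls in Rpl36, Rpl37a, Rpl18, Rps27a and Rpl3l. Rpl36 had the widest gap between controls of this set, at 40.7 and 58.1 FPKM with 49.2 in AAV-IL27. These genes were few, and their values did not leave the control range.

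Among the places in the ribosome listed here, the acidic stalk had the lowest median. The stalk recruits the elongation factors. Its 4 genes, which include Rpl12, had a median of -0.41 and all 4 were below both controls. Their median for AAV-ctrl 2 minus AAV-ctrl 1 was 0.16, against 0.12 for the family. Rplp0, the scaffold of the stalk, had 211, 236 and 169 FPKM and a difference of -0.40. Rplp1 had 210, 244 and 169 FPKM and a difference of -0.42. Rplp2, the partner of Rplp1, had 159, 178 and 154 FPKM and a difference of only -0.13. The stalk proteins P1 and P2 work as a pair, and the ranges of these messages in AAV-ctrl and AAV-IL27 did not overlap for either gene.

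Rpl5 and Rpl11 form the 5S ribonucleoprotein, which binds MDM2 when ribosome assembly fails. Rpl5 had 43.0, 48.3 and 37.3 FPKM and a difference of -0.28, and Rpl11 had 149, 154 and 133 FPKM and a difference of -0.18. The 9 genes around the exit of the peptide tunnel had a median of -0.15 and all 9 were below both controls. The 14 genes of the small subunit head had a median of -0.19, with 13 below both controls. The 4 genes of the mRNA entry channel had a median of -0.18, with 4 below both. All these counts stand beside the same background of 41.9%.

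Rps6, the phosphorylation target of the S6 kinases, had 120, 128 and 107 FPKM and a difference of -0.21, close to the family median. Rps19, the gene most often mutated in Diamond-Blackfan anaemia, had 50.6, 63.8 and 40.8 FPKM and a difference of -0.47. The 19 family members on the list of genes mutated in that disease had a median of -0.23, with 16 below both controls and 2 above both, against 41.9% and 38.9% of all genes. Its median was close to that of the whole family.

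The 7 paralogue members carry an ending of l or l1 that marks a paralogue of a core gene, and they differed among themselves. Among the pairs compared, coding identity ran from 43.2% for Rpl3 and Rpl3l to 87.7% for Rpl36a and Rpl36al, the closest pair. The first 150 of the 318 coding bases of Rpl36a and of Rpl36al, from GENCODE M21 on GRCm38, are given because fragments must be assigned between them. Capitals mark the 23 bases of this stretch at which they differ. Over the whole coding sequence 39 bases differ and the identity is 87.7%.
Rpl36a: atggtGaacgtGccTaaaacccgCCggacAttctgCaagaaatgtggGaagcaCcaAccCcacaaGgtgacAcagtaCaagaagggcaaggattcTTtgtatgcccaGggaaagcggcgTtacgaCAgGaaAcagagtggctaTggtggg
Rpl36al: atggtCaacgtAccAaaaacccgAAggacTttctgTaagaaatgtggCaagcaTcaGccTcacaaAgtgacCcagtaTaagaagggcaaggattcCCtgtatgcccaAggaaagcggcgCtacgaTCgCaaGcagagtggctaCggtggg

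Rpl36al had 18.2, 19.2 and 13.9 FPKM and a difference of -0.40, against -0.91 for Rpl36a. Its estimated fragments were 159 (135.2 to 185.7), 170 (145.4 to 197.6) and 121 (100.4 to 144.6). The AAV-IL27 interval thus met that of AAV-ctrl 1 but not that of AAV-ctrl 2. With the FPKM of Rpl36a and Rpl36al added, the sums were 56.1, 62.3 and 35.0 and the difference was -0.74. The sum in AAV-IL27 was below both controls too. Rpl22 and Rpl22l1, with a coding identity of 67.5%, were both lower in AAV-IL27, at -0.48 and -0.57. Rps27l had 9.27, 10.3 and 8.24 FPKM and a difference of -0.22, against 0.04 for Rps27, with which it shares 76.2% of its coding bases. Its estimated fragments of 76 (59.9 to 95.1), 86 (68.8 to 106.2) and 68 (52.8 to 86.2) overlapped in all 3 libraries. Rpl7l1, which acts in the assembly of the large subunit, had 14.9, 14.2 and 15.2 FPKM and a difference of 0.06, against -0.18 for Rpl7. The fragment intervals of Rpl7l1 overlapped too, at 727 (675.1 to 781.8), 699 (648.1 to 752.8) and 738 (685.7 to 793.2).

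Rpl3l, a form of Rpl3 made in muscle, was low at 1.68, 1.14 and 1.62 FPKM, or about 31, 21 and 30 fragments, with a difference of 0.13 against -0.57 for Rpl3. Rpl39l, known from testis, had 0.28 FPKM in each AAV-ctrl library (about 4 fragments, interval 1.1 to 10.2) and was listed at 0 in AAV-IL27, where 3 fragments would have given 0.214 FPKM. A difference in Rpl39l was not detectable at this depth. Rpl39 itself had 42.5, 44.2 and 35.0 FPKM and a difference of -0.30.

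Near-identical copies are common in this family. BLAST of each coding sequence against all GENCODE M21 transcripts found at least 1 copy with 95% identity over 80% of the query for 77 of the 84 genes, and Rpl21 had 57. Most such copies are processed pseudogenes, so the value of a single gene depends on how the authors assigned shared fragments. The median difference was -0.17 for the 6 genes without a copy, -0.24 for 33 genes with 1 to 4, -0.28 for 27 genes with 5 to 9 and -0.16 for 17 genes with 10 or more. No order with copy number was seen. Rpl8 and Rps3, both without a copy, had differences of -0.23 and -0.13 and were each below both controls. Where the table also lists a pseudogene or retrotransposed copy, adding it moved some values. Rpl37 plus Rpl37rt had a difference of -0.01 against -0.10 for Rpl37 alone, and Rps15a with its listed pseudogenes had -0.14 against -0.32 alone.

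The difference was set against what is known of each gene. Across the 83 genes, Spearman's rho was 0.36 with mean FPKM, -0.14 with transcript length, 0.08 with GC content, -0.04 with exon number and -0.02 with the number of copies. For mean FPKM, Pearson's r was 0.29, and over 9031 genes rho was 0.24 and r 0.00030. These are descriptions across genes of the same libraries. Members lie on 19 chromosomes, 14 of them on chromosome 7 and 4 on the X chromosome.

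Genes of the same process but outside the symbol rule were looked up in lists of known members. Of the ribosomal proteins with other names, Fau, the fusion that gives S30, had 563, 631 and 660 FPKM and a difference of 0.15, opposite to most of the family. Rack1, a scaffold on the small subunit head, had 79.0, 86.0 and 57.1 FPKM and a difference of -0.52.

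The 7 elongation factors and associated genes had a median of -0.22, with 6 below both controls and 1, Eif5a, above both, beside the same shares of all genes. Eef1a1, which brings tRNA to the ribosome, had 602, 643 and 535 FPKM and a difference of -0.22. Eef2, the translocase, had 173, 190 and 162 FPKM and a difference of -0.16, and Tpt1, whose message is regulated like those of ribosomal proteins, had 502, 535 and 495 FPKM and a difference of -0.07. The 29 initiation factors had a median of -0.07, with 14 below both (48.3%, against 41.9% of all genes) and 4 above both (against 38.9%). Mitochondrial ribosomal proteins, which serve a separate ribosome, had a median of -0.11 over 74 genes. Below both controls were 38 (51.4%, against 41.9% of all genes), and 17 were above both (against 38.9%). Their AAV-ctrl 2 minus AAV-ctrl 1 median was 0.05, and their share of all FPKM was 0.143%, 0.147% and 0.145%.

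The 32 ribosome biogenesis factors averaging 1 FPKM or more had the lowest median of the translation lists, at -0.30. Of these, 20 (62.5%) were below both controls, against 41.9% of all genes, and 5 were above both, against 38.9%. Lower by at least 0.25 were 17, against 14.6% of all genes. Npm1, a nucleolar chaperone, had 24.1, 25.2 and 16.8 FPKM and a difference of -0.52. Ncl, the nucleolar protein nucleolin, had 9.48, 10.02 and 9.72 FPKM, inside the control range. Of the 15 regulators of ribosomal protein synthesis, 4 were below both controls and 7 above both, against 41.9% and 38.9% of all genes. Their median was 0.06 and their differences ran from -0.51 to 0.32. The lowest was Myc, with 2.19, 1.73 and 1.07 FPKM. None of these lists was tested against the family, and all share the same 3 libraries.

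**Figure D5:**
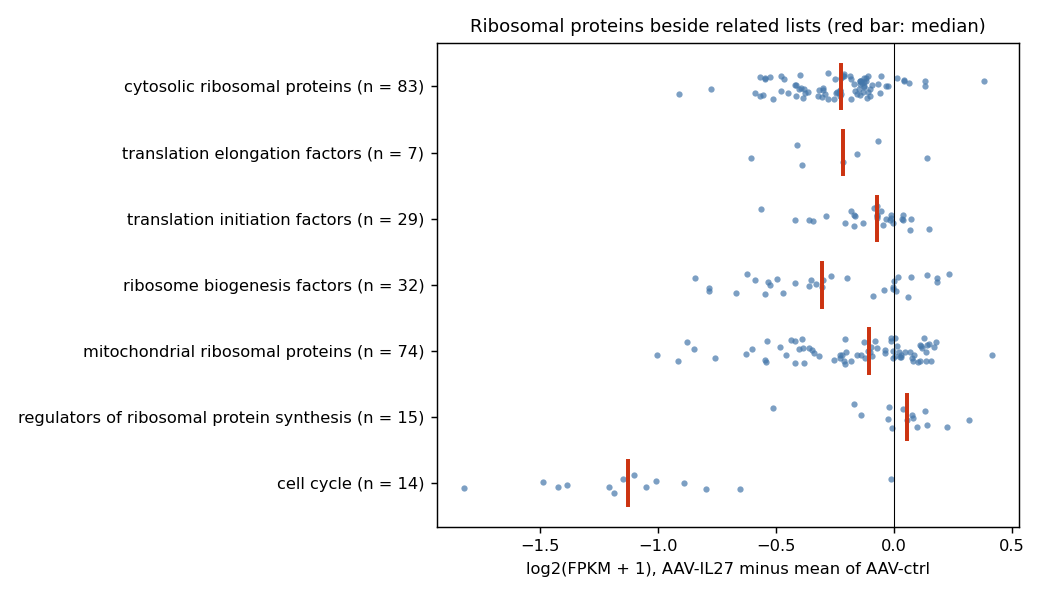
Difference of log2(FPKM + 1) between AAV-IL27 and the mean of AAV-ctrl for cytosolic ribosomal protein genes and for lists of related genes and cell cycle genes averaging 1 FPKM or more, 1 dot per gene, spread vertically at random, with a red bar at the median. The bar stands at -0.22 for the family, -0.30 for biogenesis factors, -0.11 for mitochondrial ribosomal proteins and -1.12 for the cell cycle.

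Markers of several other cell types also differed between the libraries. The marker counts stand beside 41.9% of all genes below both controls and 38.9% above both. All 14 erythroid markers were below both controls in AAV-IL27, with summed FPKM of 20601, 13936 and 2365, and so were 12 of 12 macrophage markers, with sums of 991, 964 and 353. All 7 measured B cell markers and all 6 megakaryocyte markers were lower too, with sums of 29.3, 39.1 and 4.24, and of 53.0, 59.2 and 9.61. Of 14 cell cycle genes, 13 were below both controls, with sums of 131, 152 and 60.3. T and NK cell markers did not share this pattern. Of the 6 measured, 1 was below both controls and 0 above both, with sums of 10.5, 11.3 and 11.6. Only 2 of them averaged 1 FPKM or more. No listed marker of these cells was at 0 in AAV-IL27. Of 10 markers of mature neutrophils, 3 were below and 3 above both controls, under both shares of all genes. Their sum in AAV-IL27 was 96.4% of the AAV-ctrl mean. Ly6g itself had 712, 766 and 586 FPKM, a difference of -0.33. Of 6 early granule markers 5 were above both controls, and of 6 secondary granule markers 5 were below both. The part of these markers in the ribosomal protein values was not tested, and in bulk RNA fewer cells of a type cannot be told apart from less of these messages in each cell. AAV-ctrl 2 was above AAV-ctrl 1 in ribosomal protein FPKM, while its erythroid sum was below that of AAV-ctrl 1 and its cell cycle sum above it.

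The libraries were of similar depth, at an estimated 19200000, 19450000 and 19100000 fragments. In each, between 8773 and 9337 genes had an FPKM of at least 1.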

How the data were processed

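RNA-seq was measured in 2 AAV-ctrl libraries and 1 AAV-IL27 library of Ly6G+ BM cells. The authors enriched mRNA with oligo-dT, made strand-marked libraries for DNBSEQ sequencing and deposited FPKM values with 2 decimals. The submitters' processing notes name mm10, and the aligner and counter are not given in the sources used here. The series design counts 4 mice but lists 3 samples, and 1 further column of per-sample values, headed as another IL27 replicate, fits none of the listed samples and was left out. Of 16073 rows, 1 without a symbol was left out.

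Differences were computed on log2(FPKM + 1), with a pseudocount of 1, over genes averaging 1 FPKM or more, and read without a test. A gene was below or above both controls when its AAV-IL27 value lay outside the AAV-ctrl range. Percentages of all genes give the same count over 9130 genes, or 2113 genes averaging 30 FPKM or more. Named were the 10 highest members, the 6 lowest and 6 highest differences, paralogues with their partners, members with a mean FPKM under 1, stalk genes, Rpl5, Rpl11, Rps6, Rps19, Rps27a, Rpsa and listed genes of related lists. Rpl36, Rpl37a, Rpl18, Rpl37, Rps15a, Rps20, Rpl8, Rps3, Rpl21, Eif5a and Rpl37rt were chosen after their values were seen. Single values of 2 genes are not reported here. Members and lists were chosen with earlier results of these data known.

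The files hold no counts. Depth was estimated from the steps of low FPKM values in 1767 genes that the authors list with 1 transcript and whose transcripts are short. Lengths came from GENCODE M21, with 70 nt taken off each. Of 390 to 397 low values per library, 71.0% to 74.1% lay within 0.15 of a whole fragment, so fragment numbers are approximate and no test on counts was made. Intervals are exact Poisson intervals at the 95% level. Transcript lengths may differ from those the authors used. Copies were found with BLAST 2.17.0, and the rest was done in Python 3.11.15 (matplotlib 3.10.9, pandas 2.3.3, numpy 2.4.6 and scipy 1.17.1). The calls and the depth estimate were tested on simulated data. Alternatives were another pseudocount, other filters, 3 rescalings, leaving out each AAV-ctrl library, larger distances and smaller member sets.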

Additional observations from a re-analysis of the deposited data

How the results depend on the processing

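The family median of -0.22 stayed negative under every alternative run, from -0.25 without AAV-ctrl 1 to -0.15 without AAV-ctrl 2. It was -0.18 at equal FPKM totals, -0.17 after median-ratio rescaling and -0.22 at equal totals without globin genes, rescalings that shifted the all-gene median by 0.037, 0.053 and 0.0045. The share of all FPKM differed by -0.206 percentage points, by -0.297 without AAV-ctrl 1 and by -0.115 without AAV-ctrl 2. The 73 genes below both controls were 69 at equal totals and 67 after median-ratio rescaling. The share of all genes was not computed after rescaling, so these counts have no background beside them. With either control left out, the count was of genes below the remaining control, a looser rule under which it cannot fall. It was 74 to 77, again without a share of all genes. With both controls kept, 26 genes were lower at a distance of at least 0.25 and 0 at a distance of at least 1. Under the same looser rule, the 5 genes above both controls became 6 without AAV-ctrl 1 and 9 without AAV-ctrl 2. With both controls kept, they were 0 at a distance of at least 0.25 and 0 at a distance of at least 1. They were 3 without the paralogues, and 3 at a mean FPKM of at least 30, a filter chosen after seeing the data. After median-ratio rescaling, Rpl17 changed from -0.06 to 0.00065 and Rps16 from -0.06 to 0.0030. Leaving out the AAV-IL27 library was not possible, since it is the only one. No paired analysis was possible because AAV-ctrl is numbered 1 and 2 and AAV-IL27 only 2. At the estimated depth, the fragment intervals of Rpl39l, Rpl3l, Rps4l, Rps27l, Rpl7l1 and Rpl38 overlapped between libraries, and the order of the libraries in these genes was not tested.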

Other observations

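The table also lists 8 rows named after ribosomal protein genes that the symbol rule leaves out, 7 pseudogenes and the retrotransposed copy Rpl37rt. Rpl37rt was the highest of them at 44.5 FPKM in AAV-ctrl 1, 40.2 in AAV-ctrl 2 and 48.9 in AAV-IL27, a log2 difference of 0.20. Rpl31-ps12 had 16.2, 7.44 and 12.8 FPKM and Rpl34-ps1 had 11.4, 5.53 and 7.93 FPKM, so both lay within the control range. Rps15a-ps6 had 2.16, 1.38 and 3.33 FPKM, a log2 difference of 0.66. Rps15a-ps4 went the other way, with 0.84, 1.17 and 0.19 FPKM and a log2 difference of -0.75. Both rows are low. In 7 of the 8 rows AAV-ctrl 2 was below AAV-ctrl 1, the opposite of the order in most of the parent genes. These values were picked out after they were seen, and how fragments were divided between parents and copies is not known.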
